A study of Homo sapiens with 2 samples.

Results

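Dense clusters of JUNB peaks are stretches of the genome in which several JUNB peaks, called in both untreated and etoposide-treated cells, lie close together. They were built from the untreated peaks on chromosomes 1 to 22 and X that had at least 1 bp in common with an etoposide peak. Such shared peaks were joined where the gap between neighbours was at most 12500 bp, and groups of 4 or more were kept, so the clusters were chosen by the measured peak positions of both lists. There were 92 clusters, made of 431 of the 16610 shared untreated peaks (2.59%, 95% Wilson interval 2.36% to 2.85%), and of 32550 untreated peaks in all. Because of that choice, the number of shared peaks in a cluster and the fact that they were shared are descriptions and were not tested. For reading the counts, 51.0% of all untreated peaks on these chromosomes were shared.

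The libraries came from IMR-90, an established line of human lung fibroblasts. CUT&RUN, in which an antibody (here against JUNB) brings a nuclease to its target on chromatin and the released fragments are sequenced, was run once on untreated cells and once on cells given etoposide, a drug that blocks topoisomerase II and so leaves breaks in DNA. The labels give neither a dose nor a time for etoposide. No control library is used here, so whether a called peak marks JUNB binding was not tested. With 1 library per condition there was no spread between replicates to set a difference against, and the intervals below cover counting error only.

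JUNB is a subunit of AP-1, a pair of bZIP proteins from the JUN, FOS and related families that binds the DNA letters TGANTCA, where N is any base. In fibroblasts AP-1 sits mostly at enhancers, the regulatory stretches that act on genes from a distance, and groups of enhancers packed closely together are known from genes that a cell type transcribes strongly. AP-1 target genes in fibroblasts include those for matrix proteins, adhesion, the actin cytoskeleton and secreted factors.

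The gene starts inside the spans that lay under peaks are shown first, since bases could be read only in windows around gene starts. A window need not hold the summit of the peak that reaches it. RefSeq promoter windows (GRCh38.p14, 250 bases before to 50 after a start) were found in the spans for 29 genes, 10 of them protein-coding. Of 32 windows, 12 lay under an untreated peak, 10 under an etoposide peak and 9 under both. For 3 protein-coding genes that host a cluster, GORAB, ANKRD28 and NUBP1, a peak of each library lay over the window. The other pair printed, LOC105372663 and LOC124906269, are non-coding RNA genes chosen after their sequences had been seen, since they hold the AP-1 letters. Capitals mark TGANTCA, which reads the same pattern on both strands. Each sequence runs 5′ to 3′ on the gene's strand.
GORAB, chr1:170531916-170532215, plus strand: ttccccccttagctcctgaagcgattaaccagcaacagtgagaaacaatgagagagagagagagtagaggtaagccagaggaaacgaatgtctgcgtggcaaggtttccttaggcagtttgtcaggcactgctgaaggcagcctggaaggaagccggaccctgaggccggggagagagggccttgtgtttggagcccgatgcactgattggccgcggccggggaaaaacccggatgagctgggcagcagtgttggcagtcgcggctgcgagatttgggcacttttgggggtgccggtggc
ANKRD28, chr3:15797930-15798229, minus strand: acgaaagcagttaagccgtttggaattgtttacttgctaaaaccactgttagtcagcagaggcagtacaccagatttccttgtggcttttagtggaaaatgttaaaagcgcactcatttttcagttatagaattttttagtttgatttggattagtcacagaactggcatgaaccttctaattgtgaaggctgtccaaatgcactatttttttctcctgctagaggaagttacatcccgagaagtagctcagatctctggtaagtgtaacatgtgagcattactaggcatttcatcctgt
NUBP1, chr16:10743592-10743891, plus strand: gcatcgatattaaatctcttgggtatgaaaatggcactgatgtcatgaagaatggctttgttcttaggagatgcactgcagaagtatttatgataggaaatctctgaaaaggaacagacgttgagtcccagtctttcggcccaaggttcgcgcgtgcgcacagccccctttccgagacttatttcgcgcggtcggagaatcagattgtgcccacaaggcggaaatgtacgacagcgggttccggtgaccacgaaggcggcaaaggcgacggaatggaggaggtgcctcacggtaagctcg
LOC105372663, chr20:51366185-51366484, plus strand: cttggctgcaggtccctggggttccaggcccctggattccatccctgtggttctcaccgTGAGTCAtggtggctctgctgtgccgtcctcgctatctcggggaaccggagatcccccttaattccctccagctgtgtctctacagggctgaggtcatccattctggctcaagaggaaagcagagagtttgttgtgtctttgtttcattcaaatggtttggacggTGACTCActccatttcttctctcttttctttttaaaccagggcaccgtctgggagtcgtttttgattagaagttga
LOC124906269, chr3:115790851-115791150, plus strand: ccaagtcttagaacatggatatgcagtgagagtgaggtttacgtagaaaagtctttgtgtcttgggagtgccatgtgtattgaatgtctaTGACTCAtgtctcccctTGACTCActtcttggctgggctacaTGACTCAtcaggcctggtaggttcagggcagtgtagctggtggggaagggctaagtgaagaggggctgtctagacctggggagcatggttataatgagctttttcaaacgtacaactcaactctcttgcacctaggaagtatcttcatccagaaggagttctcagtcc

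The windows of GORAB, ANKRD28 and NUBP1 do not hold TGANTCA. Their summits all lay beyond the 50 bases after the start that a window holds. The bases at these summits were therefore not read. At GORAB, which encodes a protein of the Golgi apparatus, 24 untreated fragments were stacked at a summit 127 bp after the start and 15 etoposide fragments at one 68 bp after it. At ANKRD28, which encodes an ankyrin repeat protein, the numbers were 24 and 18, with summits 71 and 115 bp after the start. That start is an alternative one inside the annotated range of the gene, 15667236 to 15859814. The nearest shared summit of its cluster was 44.0 kb from any end of a protein-coding gene. At NUBP1, which encodes a protein of iron-sulphur cluster assembly, they were 26 and 15, with summits 155 and 152 bp after the start. The window of LOC105372663 holds TGANTCA 2 times, and a peak with 63 untreated and 26 etoposide fragments reached into it from summits at -371 and -385 bp from the start. The window of LOC124906269, in the span of the cluster that overlaps LSAMP but outside that gene, holds TGANTCA 3 times, all before the start, under an untreated peak of 30 fragments with its summit at -35 bp and no etoposide peak. In all, 7 of the 32 windows in the spans hold TGANTCA, and 7.68% of the 34961 windows on these chromosomes do (95% Wilson interval 7.403% to 7.96%). Of these 7, the windows of LINC00973, LINC02879 and LOC124904930 lay under no peak of either library. The windows in the spans are mostly of non-coding genes, and some overlap each other, as at NUBP1. Whether the letters are more frequent in the spans was not tested. A start of IL1R1, which encodes the receptor of interleukin 1, lay under an untreated peak of 19 fragments and no etoposide peak. Its window, 102104354 to 102104653, is inside the annotated range of the gene, which begins at 102070390.

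The clusters were mostly small. They spanned a median of 20.8 kb (4.31 to 82.1 kb, quartiles 15.7 and 25.6 kb) and 2.02 Mb in all. There were 70 clusters of 4 shared peaks, 12 of 5, 4 of 6, 3 of 7, and 1 each of 8, 11 and 27. Shared peaks covered a median of 8.33% of a span. The gap between neighbours had a median of 5.80 kb over 339 gaps, and 89 of these gaps were at most 1 kb. When peaks within 1 kb of each other were counted as 1, 45 of the 92 clusters still had 4 or more places, so in the other 47 the number rests on peaks that nearly touch. At the threshold, the largest gap inside a cluster was 12.463 kb, and 41 of the 70 clusters of 4 had a gap above 10 kb. Just outside it were 331 groups of 3 shared peaks, of which 29 had a further shared peak within 15 kb, the nearest at 12.672 kb.

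Clusters were found on 19 of the chromosomes. Chromosome 2 had 12 and chromosome 1 had 10, and chromosomes 19, 21, 22 and X had 0. A set of 7 clusters lay in a place of its own kind. On each chromosome the longest stretch without a protein-coding gene was found, and those of chromosomes 1, 5, 16 and 17, which take in the centromere, held 7 clusters with 63 of the 431 shared peaks. This split by position was made after the clusters had been seen. Since most of these 7 stood apart from the other 85 in signal, results are given apart for both.

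**Figure D1:**
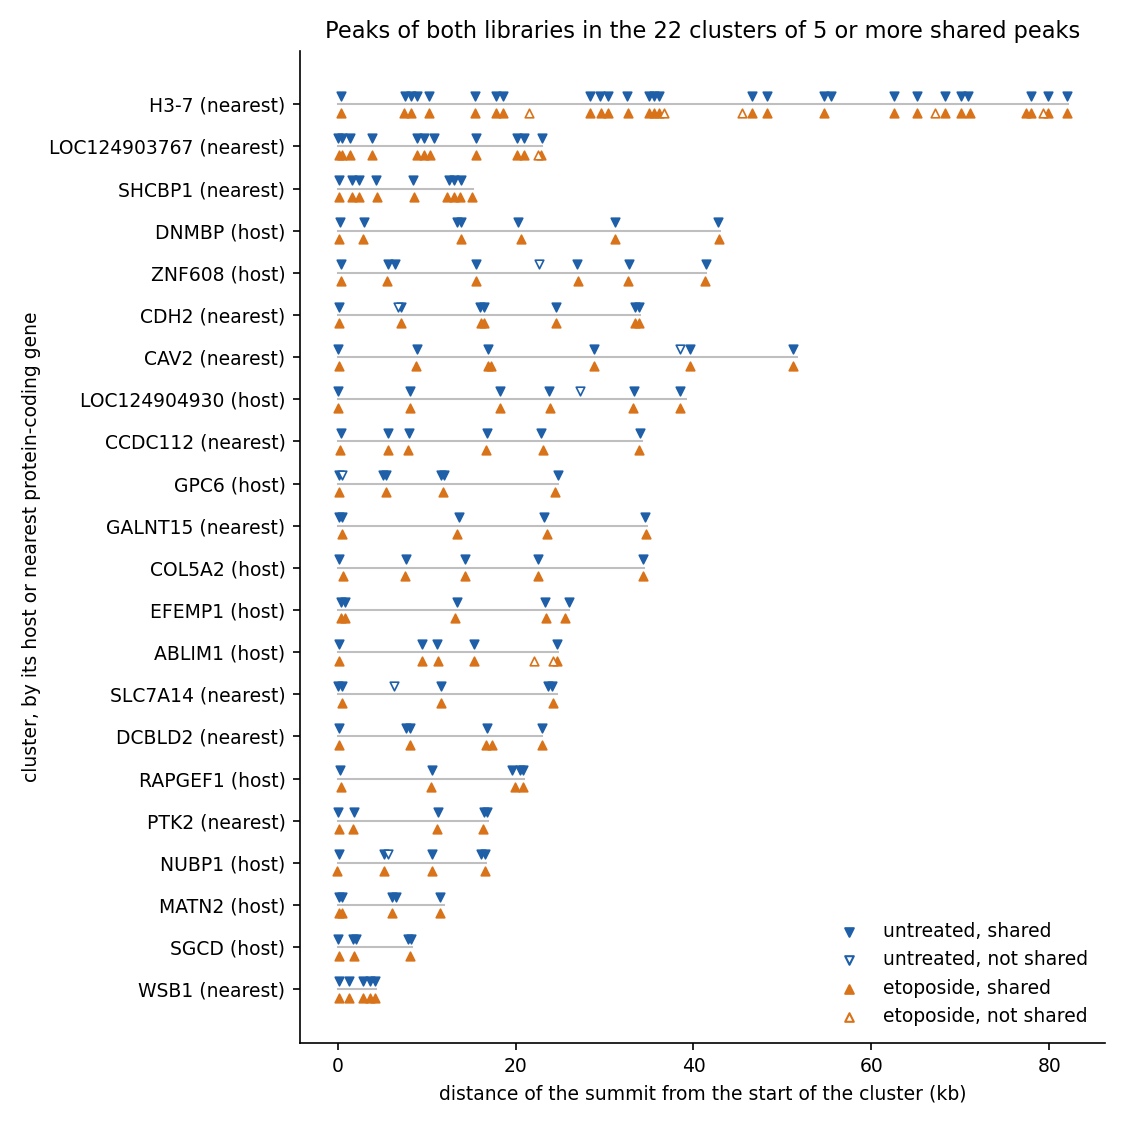
Peaks of the 22 clusters with 5 or more shared peaks, 1 line per cluster, named by its host or nearest protein-coding gene and ordered by the number of shared peaks. The x axis gives the distance of each summit from the start of the cluster in kb; blue triangles are untreated peaks and orange ones etoposide peaks, filled where shared and open where not. The cluster with 27 shared peaks is 82.1 kb long, and the etoposide summits lie under the untreated ones in most places.

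The highest signal of all was in the gene-free stretches, where 5 of the 7 clusters had more fragments of each library than any of the other 85. Signal was measured as the pileup, the number of fragments that cover a summit, which can be recovered from the fold and p that the authors deposited. Untreated and etoposide peaks that overlap were joined into 1 site, with the highest pileup of each library, which gave 390 sites in the 92 clusters. The largest cluster, on chromosome 1 at 143184830 to 143266939 and 635 kb from H3-7, a histone H3 gene, had 27 untreated and 31 etoposide peaks. Its 25 sites had between 40 and 203 untreated fragments each, 2426 in all, and between 90 and 264 etoposide fragments, 3847 in all. On chromosome 16 a cluster at 34572601 to 34595616, nearest to LOC124903767, had 11 and 12 peaks with 848 and 1093 fragments, and one at 46386349 to 46401555, nearest to SHCBP1, had 8 and 9 peaks with 1046 and 1296 fragments. On chromosome 17, 5 peaks of each library lay within 4.31 kb, at 26881281 to 26885594, with 401 and 440 fragments. All 5 lay within 1 kb of their neighbours, so this cluster is a single place by the stricter count.

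The other 3 clusters of these stretches were smaller. On chromosome 1, 4 peaks of each library at 125168129 to 125182726, 3705 kb from the nearest gene annotated as protein-coding (LINC02798), had 621 untreated and 875 etoposide fragments. A cluster of 4 at 124188999 to 124205104 had only 54 and 64. On chromosome 5, at 49644021 to 49661834 and 734 kb from EMB, which encodes embigin, 5 peaks of each library included 4 shared sites with 191 and 294 fragments.

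Etoposide fragments exceeded untreated ones in each of these 7 clusters, although the etoposide library was shallower. The lowest local background and the smallest peak width of each list put the etoposide library at 0.836 times the untreated depth. Per this depth, the ratio of etoposide to untreated fragments was 1.90 in the cluster near H3-7 (95% exact interval 1.803 to 1.997) and between 1.31 and 1.84 in the other 6. The interval lay above 1 in 6 of the 7, and the exception was the cluster of 54 and 64 fragments, at 1.42 (0.97 to 2.08). Of the 61 sites of these clusters, 14 were at least 2-fold higher in etoposide (22.95%) and 0 were at least 2-fold lower, against 1.84% and 3.12% of all 16167 shared sites. The local background moved with this result: its median at these sites was 14.9 untreated and 22 etoposide fragments, and over all shared sites 1.51 and 1.06. Its part in the result was not tested, nor was whether the peaks of these 7 clusters mark JUNB binding.

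**Figure D2:**
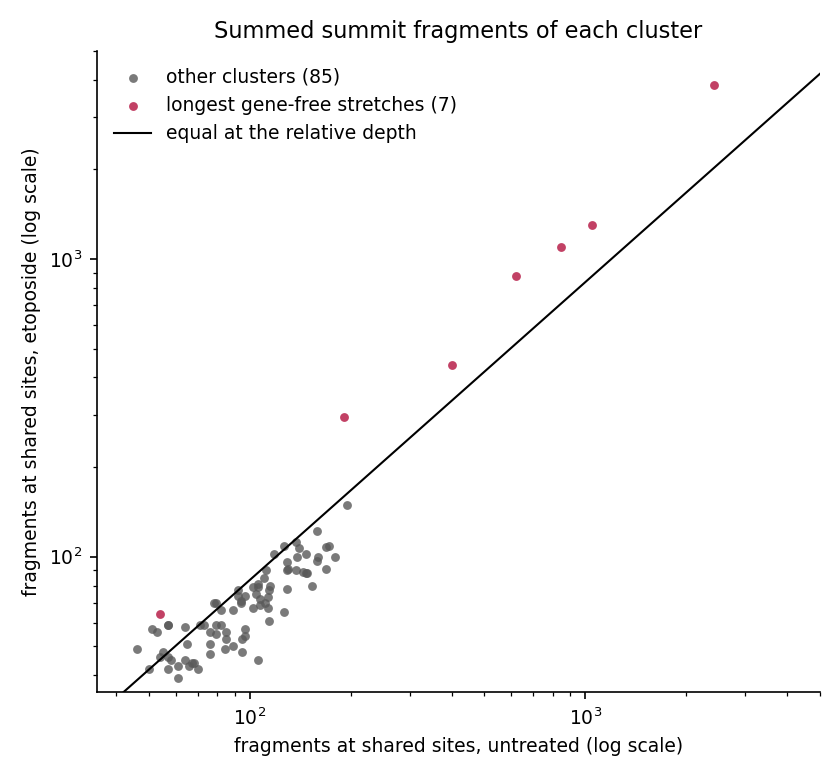
Fragments stacked at the shared sites, summed for each of the 92 clusters, in the untreated library (x axis) and the etoposide library (y axis), both on log scales. Red points are the 7 clusters in the longest gene-free stretches and grey points the other 85; the line marks equal signal at the relative depth of 0.836. All 7 red points lie above the line and 71 of the 85 grey points lie below it.

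The 85 other clusters had signal in the usual range and somewhat less of it in the etoposide library. Their sites had a median of 23 untreated fragments (quartiles 17 and 32) and 17 etoposide fragments (13 and 23), where all shared sites had 19 (14 and 27) and 15 (11 and 20). Summed per cluster, untreated fragments ranged from 46 to 195 and etoposide fragments from 39 to 149. Per relative depth the ratio of a cluster ranged from 0.51 to 1.34, and 71 of 85 were below 1. The interval lay wholly below 1 in 20 of the 85 and wholly above 1 in 0. No such count is given for groups of shared peaks outside clusters. The relative depth rests on assumptions about the caller, and a lower value of it would raise every ratio. The counts of clusters and intervals below 1 at other depth values were not tested. The median site ratio over all shared sites was also below 1, so a ratio below 1 is not particular to these clusters.

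By site, the median ratio in the 85 clusters was 0.855, and over all shared sites it was 0.920. Among sites with 31 to 53 fragments in both libraries together, the middle range of the clustered sites, the median was 0.838 at 170 clustered sites and 0.884 at 6716 sites outside clusters. In clusters built from the etoposide peaks in place of the untreated ones, the median was 0.845 at 308 sites outside the stretches. At least 2-fold changes were few: 2 of 329 sites were higher in etoposide (0.608%) and 12 were lower (3.65%), beside the 1.84% and 3.12% of all shared sites. Whether these ratios reflect a change in binding was not tested. In these bulk libraries weaker binding in every cell and binding in fewer cells could not be told apart in any case. The local background had a median of 2.26 untreated and 1.44 etoposide fragments at these sites, above the 1.51 and 1.06 of all shared sites, and its part in the ratio was not tested.

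**Figure D3:**
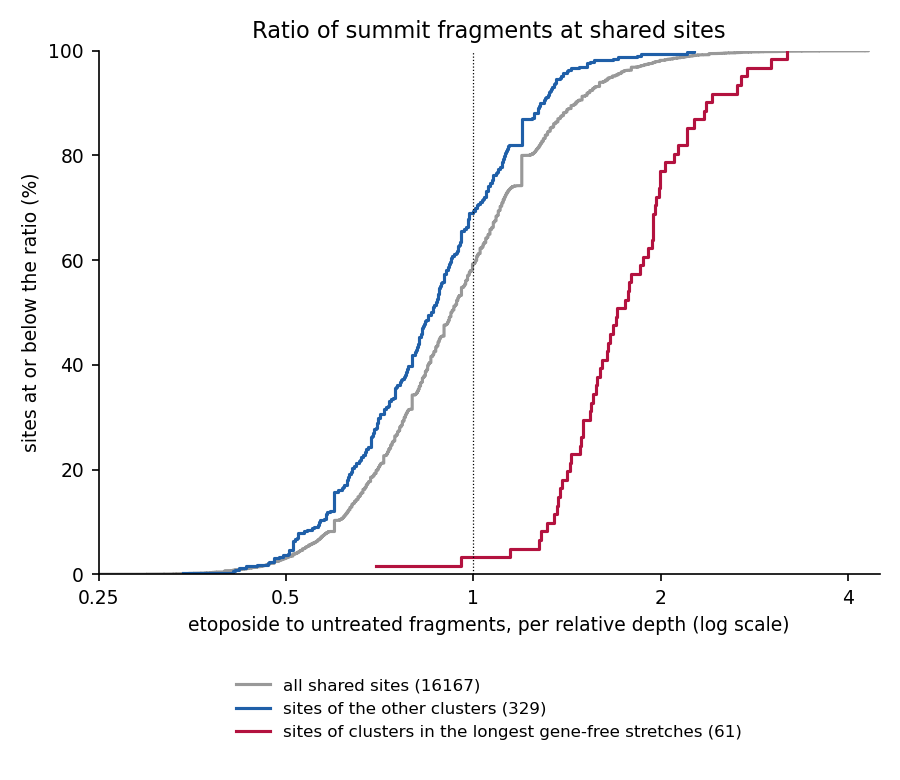
Share of shared sites (y axis, percent) at or below each ratio of etoposide to untreated fragments per relative depth (x axis, log scale), for all 16167 shared sites (grey), the 329 sites of 85 clusters (blue) and the 61 sites of the 7 clusters in the gene-free stretches (red). The blue curve lies left of the grey one, with medians of 0.855 and 0.920, and the red curve lies to the right, with a median of 1.70.

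The rule keeps only untreated peaks that overlap an etoposide peak, so the distance between summits and the small number of peaks without counterpart are given as a description. The summits of the 2 libraries were a median of 39 bp apart at the 329 sites (40 bp over all shared sites) and 15 bp apart at the 61 sites of the gene-free stretches. Of the 463 untreated peaks in all spans, 32 had no etoposide counterpart, and of the 418 etoposide peaks 18 had no untreated counterpart. In 52 of the 92 clusters every peak of both libraries was shared. Of the 18 etoposide peaks without counterpart, 7 were in the 7 clusters of the gene-free stretches and 11 in the other 85, which had 31 of the 32 untreated ones.

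The number of peaks in a cluster was often lower in the etoposide list, but this depends on which list the clusters are built from. In the 85 clusters there were 399 untreated and 348 etoposide peaks, 0.872 per untreated peak, where the whole lists gave 0.791. Part of this difference came from neighbouring untreated peaks that met the same etoposide peak: 368 shared untreated peaks met 337 etoposide ones. Etoposide had fewer peaks in 47 of the 85 clusters, the same number in 29 and more in 9. Built from the etoposide list, 79 clusters outside the stretches had 346 untreated and 349 etoposide peaks, and etoposide had fewer in 24, the same number in 28 and more in 27. Of the 92 clusters, 67 overlapped one of the 86 clusters built from etoposide peaks (72.8%), which is 77.9% of the latter.

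The widest differences in peak number were small. Etoposide had 3 peaks fewer in 3 clusters: 116.8 kb from SLC7A14 on chromosome 3 (6 untreated and 3 etoposide peaks), 23.3 kb from MICAL2 on chromosome 11 (6 and 3) and inside GPC6 on chromosome 13 (7 and 4). SLC7A14 encodes a transporter-like membrane protein, MICAL2 an enzyme that acts on actin, and GPC6 a glypican of the cell surface. At the cluster near SLC7A14 the 3 joint sites had 18, 33 and 63 untreated and 9, 23 and 29 etoposide fragments. At GPC6 the 4 joint sites had 16, 15, 13 and 13 untreated and 15, 15, 12 and 17 etoposide fragments before depth is taken into account, and the ratio per relative depth was 1.24 (0.85 to 1.81). There 6 shared untreated peaks met 4 etoposide ones. Near SLC7A14 5 shared untreated peaks met 3 etoposide ones, and near MICAL2 4 met 3, so not every missing peak lacked a counterpart. Etoposide had 4 peaks more in the cluster near H3-7 and 2 more in ABLIM1, which encodes an actin-binding LIM protein (5 and 7 peaks). The 5 joint sites of ABLIM1 had 130 untreated and 91 etoposide fragments. A difference of 2 fewer was seen in 8 further clusters and of 1 more in 10.

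**Figure D4:**
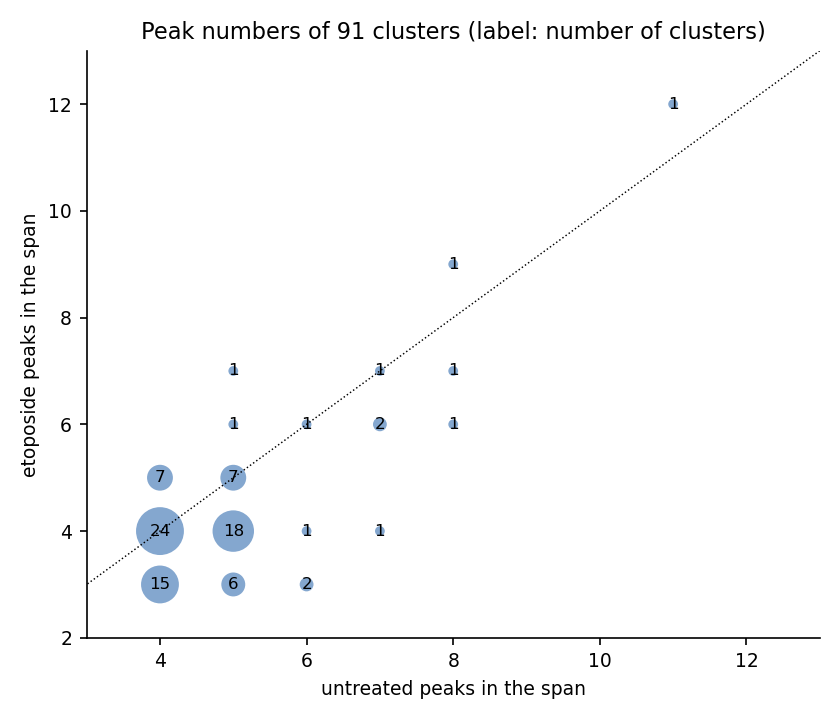
Number of untreated (x axis) and etoposide (y axis) peaks in the span of each of 91 clusters; the cluster with 27 and 31 peaks is left out. The area of a circle and its label give the number of clusters with that pair of values, and the dotted line marks equal numbers: 24 clusters had 4 peaks of each library, 18 had 5 untreated and 4 etoposide, and 15 had 4 untreated and 3 etoposide.

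A protein-coding gene overlapped 49 of the 92 clusters (53.3%, 43.1% to 63.1%), and 49 of 85 outside the gene-free stretches (57.6%, 47.0% to 67.6%). In 38 of these 49 every summit lay inside the host gene. Few summits were near either end of a gene: 6 of the 368 clustered peaks outside the stretches had one within 1 kb of where a protein-coding gene begins or stops (1.63%, 0.749% to 3.51%), where 5.10% of all shared peaks did (4.78% to 5.44%). Summits inside genes made up 50.5% of the 368, near the 51.6% of all shared peaks. Of the 36 clusters outside both genes and stretches, 15 lay within 50 kb of the nearest protein-coding gene and 11 more than 100 kb away, the farthest being 971 kb from CDH2, which encodes N-cadherin. Among the 43 clusters without a protein-coding gene, 21 overlapped a long non-coding RNA gene.

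Host genes were long. The 48 hosts had a median length of 168 kb (8.05 to 1191 kb), where the median of 19974 protein-coding genes was 24.2 kb. Clusters overlapped 52 protein-coding genes, 0.260% of all. With genes ranked by length into 4 groups of like size, 42 of the 52 were among the 4993 longest (from 65.3 kb up), 0.841% of them. In the 3 groups of shorter genes the share was 0.120%, 0.0200% and 0.0601%, from longer to shorter. A host is any gene that a span overlaps, so a long gene is more readily counted by the rule itself. The lengths of genes with any shared peak were not set beside these values. The part of gene length in the counts of gene groups below was not tested.

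Outside the gene-free stretches, the clusters with most peaks lay in or near genes of varied function. In DNMBP on chromosome 10, which encodes a scaffold and exchange factor for the GTPase CDC42, 7 shared untreated peaks spread over 43.0 kb at 99963441 to 100006403, with 7 untreated and 6 etoposide peaks. Its 6 joint sites had 17, 22, 20, 22, 25 and 54 untreated and 13, 18, 18, 13, 9 and 29 etoposide fragments. The etoposide value was lower at all 6 before depth is taken into account, and the ratio of the sums per relative depth was 0.75 (0.58 to 0.97). At ZNF608 on chromosome 5, a zinc finger gene, 8 untreated and 6 etoposide peaks lay at 124628983 to 124670423. Its sites had 31, 35, 19, 24, 13 and 15 untreated and 15, 20, 15, 15, 13 and 12 etoposide fragments, a ratio of 0.79 (0.60 to 1.03), and only 4 of the 7 shared summits were inside the gene.

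Far from genes, 8 untreated and 7 etoposide peaks lay on chromosome 18 at 29148012 to 29182046, with CDH2 the nearest gene. The 7 sites had 21, 26, 30, 48, 9, 35 and 26 untreated and 9, 17, 34, 31, 17, 15 and 26 etoposide fragments, so single sites went either way and the ratio of the sums was 0.91 (0.73 to 1.14). On chromosome 20, at 51327553 to 51366762, a cluster of 7 untreated and 6 etoposide peaks overlapped the gene model LOC124904930, with 2 of its 6 shared summits inside. It ended at the window of LOC105372663 printed above, where the strongest site had 63 and 26 fragments, and its ratio was 0.64 (0.49 to 0.84). Near CCDC112 on chromosome 5, which encodes a coiled-coil protein, 6 peaks of each library at 115343701 to 115377968 had 137 and 112 fragments, a ratio of 0.98 (0.76 to 1.26).

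The lowest ratios outside the stretches were inside ZCCHC14, FRMD6 and RAPGEF1. In ZCCHC14, a zinc finger gene on chromosome 16, 3 joint sites had 16, 55 and 35 untreated and 9, 19 and 17 etoposide fragments, a ratio of 0.51 (0.35 to 0.73). In FRMD6, which encodes a FERM-domain protein linked to the Hippo pathway, it was 0.60 (0.42 to 0.86), and in RAPGEF1, which encodes an exchange factor for the GTPase RAP1, 0.62 (0.45 to 0.84). The highest ratio was near SMIM21, with 51 and 57 fragments at 3 sites, 1.34 (0.90 to 1.99), and its interval takes in 1. These were picked as the ends of the range.

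Of 14 gene lists that describe fibroblasts, other cell types and pathways, 6 had a gene that hosts a cluster or is nearest to one. Over all protein-coding genes 89 were host or nearest gene, 0.446%. Of the matrix proteins and their receptors 4 of 44 were (COL5A2, ITGB5, CAV2 and COL4A1), of the actin cytoskeleton and focal adhesion genes 2 of 44 (PALLD and PTK2), of the fibroblast transcription regulators 2 of 33 (GLIS3 and TCF4), of the YAP and TEAD genes 2 of 25 (CCN2 and TGFB2), of the TGF-beta genes 1 of 28 (TGFB2) and of the growth factor genes 1 of 33 (IGF1R). In each of these lists the count is at most 4 genes. The list of matrix proteins and their receptors also holds the caveolin gene CAV2.

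COL5A2, which encodes a chain of the fibrillar collagen V, was the only host gene with 2 clusters. They lie 31.5 kb apart within its annotated range on chromosome 2, 189031898 to 189441111. The first, at 189204321 to 189222510, had 4 peaks of each library, with 21, 34, 36 and 22 untreated and 22, 19, 19 and 13 etoposide fragments, a ratio of 0.77 (0.57 to 1.05). The second, at 189253971 to 189288405, had 5 of each, with 19, 28, 34, 57 and 41 untreated and 9, 8, 31, 28 and 24 etoposide fragments, a ratio of 0.67 (0.52 to 0.86). Etoposide was lower at 8 of these 9 sites before any correction for depth. ZNF438 on chromosome 10, a zinc finger gene, also had 2, 1 inside it and 1 at 109 kb from it, 134 kb apart.

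The other host or nearest genes from the list of matrix proteins and their receptors had 1 cluster each. In ITGB5, which encodes an integrin subunit, at 124812652 to 124833476 on chromosome 3, 4 sites had 22, 8, 15 and 19 untreated and 15, 6, 23 and 14 etoposide fragments, a ratio of 1.08 (0.75 to 1.57). On chromosome 7, 21.9 kb from CAV2, which encodes a caveolin, the widest cluster outside the stretches (51.6 kb, 116426228 to 116477807) had 7 peaks of each library. Its sites had 14, 31, 33, 36, 20 and 24 untreated and 10, 14, 24, 27, 23 and 24 etoposide fragments, and the ratio was 0.92 (0.72 to 1.18). Near COL4A1, a basement membrane collagen gene on chromosome 13, the cluster was 136 kb away and had 73 and 59 fragments. In these 3 clusters the interval takes in 1.

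In PALLD on chromosome 4, which encodes the actin-associated protein palladin, 4 sites at 168528234 to 168562154 had 42, 35, 36 and 13 untreated and 44, 28, 24 and 13 etoposide fragments, a ratio of 1.04 (0.79 to 1.35). A cluster 24.9 kb from PTK2, the gene of focal adhesion kinase, had 5 untreated and 4 etoposide peaks with 76 and 47 fragments at joint sites, a ratio of 0.74 (0.50 to 1.08). In IGF1R on chromosome 15, the receptor of insulin-like growth factor 1, 4 sites at 98890072 to 98915573 had 39, 58, 28 and 22 untreated and 27, 39, 19 and 17 etoposide fragments, a ratio of 0.83 (0.64 to 1.08). All 4 were lower in etoposide before depth is taken into account, and the intervals of all 3 clusters take in 1.

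Among signalling and regulator genes, the cluster 35.7 kb from TGFB2, a TGF-beta ligand, had 4 untreated and 5 etoposide peaks with 39, 21, 30 and 22 untreated and 29, 16, 23 and 22 etoposide fragments, a ratio of 0.96 (0.72 to 1.28). The cluster 102 kb from CCN2, a secreted matricellular factor, had 5 and 4 peaks and a ratio of 0.89 (0.64 to 1.23). In GLIS3, a zinc finger transcription factor gene, 3 sites had 12, 19 and 51 untreated and 11, 18 and 30 etoposide fragments, a ratio of 0.86 (0.61 to 1.22). The cluster nearest to TCF4, a bHLH transcription factor gene, was 185 kb away with a ratio of 0.94 (0.64 to 1.38). For each of these 4 the interval takes in 1.

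Several gene groups had no cluster at all. None of the 58 senescence-associated secretory factors, 24 p53 targets, 20 AP-1 family genes or 16 MAP kinase feedback genes was a host or nearest gene. The same held for the 20 fibroblast markers, which include COL1A1, COL1A2, FN1 and PDGFRB, and for 10 markers each of epithelial, endothelial and blood cells. None of these genes was within 100 kb of a cluster either, where 0.781% of all protein-coding genes were. At that share fewer than 1 gene would be counted in a list of 58, so a count of 0 in any one of them shows little. The peak lists hold no transcript levels, so the cell type in the label was not checked by expression.

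The surroundings of the clusters also held more peaks that were not shared than the chromosomes as a whole. The clusters were chosen as places dense in called peaks of the same lists, so this is a description and was not tested. Flanks of other shared peaks were not set beside it. Within 100 kb on either side of the 85 clusters, leaving out sides that reach another cluster, there were 14.2 untreated peaks per Mb without counterpart and 6.55 etoposide peaks, where the chromosomes as a whole had 5.40 and 3.07. Inside the 85 spans there were 16.8 and 5.95 per Mb. Etoposide peaks without counterpart numbered 0.460 per untreated one in the flanks and 0.569 over the chromosomes.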

How the data were processed

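The members and the gene lists were chosen with earlier results of these data known. The data were 2 peak lists, 1 per library, from 1 untreated and 1 etoposide library. Bowtie2 and MACS2 are named in the submitters' processing notes, which list hg38 beside a mouse build; versions and settings are not given in the sources used here. The deposited fold is the ratio of summit signal to local background, the deposited significance values are -log10 p and -log10 q, and the deposited score is 10 times -log10 q. These are the authors' values. The number k of fragments at a summit was the whole number for which a fold of (k + 1)/(b + 1), with b the local background, gave the deposited -log10 p within 0.001, which was so for every peak; the method and the joining of peaks were tested on simulated data. Depth is known only as the ratio of the libraries, from their lowest backgrounds (0.482 and 0.377) and smallest widths (202 and 189 bp), both assumptions about the caller.

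Genes came from RefSeq on GRCh38, patch 14 (19974 protein-coding). The host is the protein-coding gene that overlaps the span by at least 1 bp, taking the one with most summits, then the longest overlap; otherwise the nearest gene is named. Positions count from 1. Exons and introns were not analysed here, nor were 941 untreated and 851 etoposide peaks off chromosomes 1 to 22 and X in the main counts. Named clusters were the 10 with most shared peaks, the 5 widest, the 5 with the largest difference in peak number each way (ties given as counts), the 3 strongest, the 3 farthest from genes, those of genes with 2 clusters, and those at listed genes. Names at the ends of the ratio range, IL1R1 and the 2 non-coding windows were added after their values had been seen. Intervals of shares are Wilson and those of ratios exact binomial, at 95%, for counting error only, and fragments without molecular identifiers are not independent molecules. No test between conditions was possible. Python 3.11.15, pandas 2.3.3, scipy 1.17.1 and networkx 3.6.1 were used.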

Additional observations from a re-analysis of the deposited data

Results flagged for a closer look

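The same rule was applied to the sequences left out of the counts above. Chromosome Y, the mitochondrial genome and 4 contigs had 6 clusters with 27 shared untreated peaks, in data the comparisons do not use. This count is a description and was not tested. They had 28 untreated and 28 etoposide peaks. On Y, 4 peaks of each library were called between 11305254 and 11330092. Whether the peaks called on these sequences mark JUNB binding there was not tested. The mitochondrial cluster had 4 untreated and 2 etoposide peaks. The largest, with 6 shared peaks, had 7 untreated and 8 etoposide peaks on a contig.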

How the results depend on the processing

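How many clusters there are is set by the rule. There were 6 with a largest gap of 5 kb and 329 with 25 kb, 423 with at least 3 peaks and 10 with at least 6, 21 when 50% of both peaks had to overlap, 60 at a -log10 q of at least 5, 7 among the 10000 strongest peaks of each list and 45 after joining peaks within 1 kb. In the same order, the share of shared untreated peaks in clusters was 0.259%, 9.48%, 8.57%, 0.548%, 1.02%, 2.001%, 0.947% and 1.43%, and it was 2.22% without the 7 clusters of the gene-free stretches. The share of clusters with a protein-coding gene was 0% at 5 kb, 40.0% with at least 6 peaks, 28.6% with the 50% overlap and 14.3% among the 10000 strongest. Etoposide peaks per untreated peak, 0.903 over all 92, were 1.05 at 5 kb and 1.15 among the 10000 strongest. The median span was 10.05 kb at 5 kb, 38.7 kb at 25 kb, 13.7 kb with 3 peaks, 36.7 kb with 6, 18.3 kb among the 10000 strongest and 25.5 kb after joining. The median site ratio, 0.915 over all 390 sites, was 0.855 without those clusters and 0.765 without scaling to depth. Genes with a cluster, 52, were 218 at 25 kb. Leaving out the gene-free stretches, the depth scaling, and the etoposide-built and 25 kb values for ratios and genes were chosen after seeing the data. No paired analysis was possible because there was 1 library of each condition. Peak lists do not show signal under the threshold, so a missing counterpart may be a weaker peak.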
